A study of Mus musculus with 3 samples.

Results

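The 9 genes described here are *Strn4*, *Washc1*, *Vps13a*, *Ppip5k1*, *Ikbkb*, *Cd3d*, *Gm5907*, *Srgap1* and *Mink1*, and they were chosen by their measured values in mouse blastocysts. In each of them both of the 2 brightest array probes changed by more than 3-fold the same way between aging blastocysts cultured with CXCL5-CXCR2 signaling suppressed and aging blastocysts cultured without suppression. They are 9 of 23458 genes named from the probes, and of 4830 genes with 2 or more probes above background on both of these arrays. That contrast is therefore given for the 9 genes as a description and carries no test.

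The embryos came from female ICR mice, an outbred strain, which per the labels were superovulated and mated (the study also describes zygotes fertilized in vitro), and the zygotes were cultured for 96 h to the expanded blastocyst. Young blastocysts, from females of 3 to 6 weeks, and aging blastocysts, from females of 43 to 53 weeks, received no treatment. Suppressed aging blastocysts came from females of 43 to 53 weeks and were cultured with a neutralizing antibody against CXCL5 at 10 μg/ml together with a CXCR2-selective antagonist at 10 nM, so the antibody and the antagonist cannot be told apart here. Each group was 1 pool of 30 blastocysts on 1 single-color array, with no replicate, and young blastocysts with suppression were not analysed here.

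CXCL5 is a chemokine and CXCR2 its G protein-coupled receptor, a pair best known for drawing neutrophils to sites of inflammation. A mouse blastocyst has an outer trophectoderm, which attaches to the uterus, and an inner cell mass that separates into epiblast and primitive endoderm. The proteins STRN4, WASHC1, VPS13A, PPIP5K1, IKBKB and MINK1 work inside cells, in kinase and phosphatase signaling, actin assembly and membrane traffic. SRGAP1 acts downstream of ROBO receptors, CD3D belongs to the T cell receptor complex, and *Gm5907* is annotated as a long noncoding RNA of no function known to the sources used here.

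A level is the log2 intensity of a probe minus the 75th percentile of its array, so that 0 marks the 75th percentile. This percentile lay at intensities of 144.9, 154.5 and 122.3 for young, aging and suppressed aging blastocysts. All 18 probes that the rule used were above background on all 3 arrays, and so were 3 of the 4 remaining probes of these genes. Trophectoderm markers (8 of 8), epiblast and inner cell mass markers (7 of 7) and primitive endoderm markers (6 of 6) were above background, and none of them differed over 3-fold between the suppressed aging and the aging array. Their median differences were 0.18, -0.22 and -0.13 in log2. Of 8 cumulus and granulosa cell markers 4 were above background, none over 3-fold apart (median 0.17). *Foxl2* was bright, at levels of 8.66, 8.54 and 8.77 on the young, aging and suppressed aging arrays. *Amhr2* read -0.89, 0.18 and -0.47, *Cyp19a1* -1.18, -1.31 and -1.01, and *Amh* -3.33, -3.79 and -3.68. *Fshr*, *Inha*, *Has2* and *Ptx3* were not above background. Of 5 red blood cell markers with a probe 3 were above background and all were lower after suppression, *Hba-a1* by 3.22-fold and *Slc4a1* by at least 10.8-fold. The median level of the red blood cell markers was -3.22, -3.53 and -4.47 on the young, aging and suppressed aging arrays, and the part of this in the 3 lower genes below was not tested. In such pools fewer cells of a type and less RNA per cell cannot be told apart. The suppressed aging array had a lower median local background (29 against 39 on the other arrays) and fewer probes above background (56.4% against 58.7% on the aging array), and the part of this in the results was not tested.

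The rule was met by 7 genes that were higher on the suppressed aging array, 0.145% of the 4830 genes, and by 4 that were lower, 0.0828%. Of these 11 genes, 6 higher and 3 lower ones are described here. The remaining ones were *Anapc1*, a subunit gene of the anaphase-promoting complex (2.48 and 4.29 higher in log2), and *Slc26a11*, an anion transporter gene (-1.60 and -1.74). Taken singly, 5.09% of 20258 named probes differed over 3-fold between these arrays. At the threshold, a log2 difference of 1.585, *Mink1* (-1.69 and -2.23), *Cd3d* (1.72 and 1.68) and *Slc26a11* lay just inside. Just outside were *1700029I15Rik* (-1.58 and -1.71), *Chd5* (-2.34 and -1.57) and *Wdsub1* (1.57 and 1.82).

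**Figure D1:**
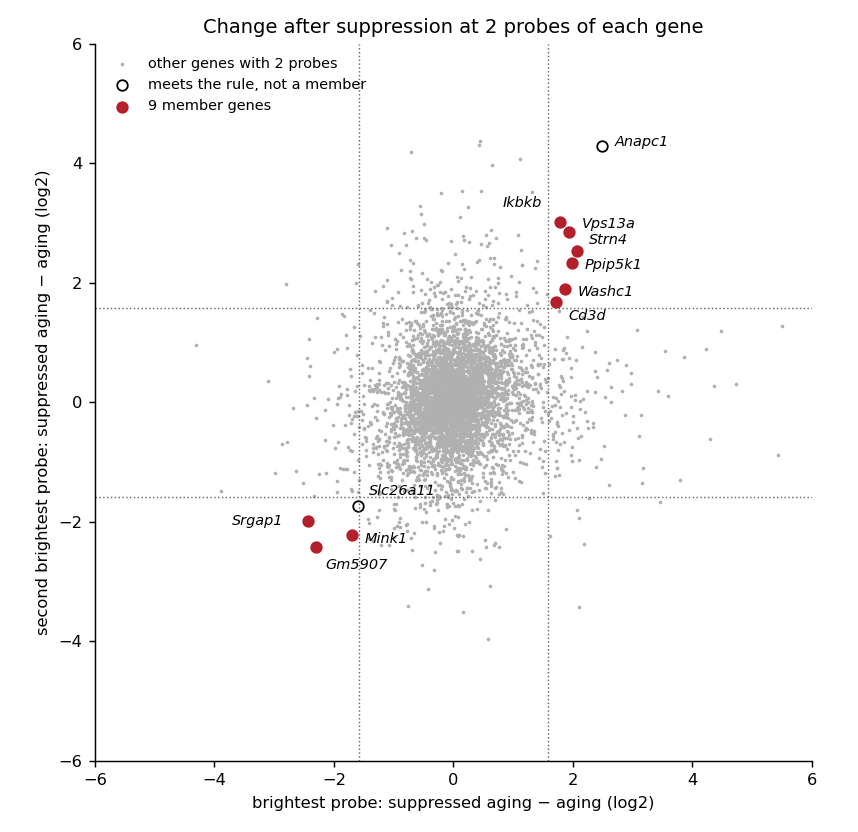
Each point is 1 of 4830 genes, with the log2 difference of suppressed aging minus aging at its brightest probe on the x axis and at its second brightest probe on the y axis. Dotted lines mark 3-fold; the 9 genes described (filled red) lie in the upper right and lower left corners with *Anapc1* and *Slc26a11* (open), and the values on these axes are the ones that chose them.

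RefSeq promoter windows, of 250 bases before to 50 after a transcription start on GRCm38.p6, were found for 7 of the 9 genes. They are shown for *Strn4* and *Washc1*, the higher genes whose patterns over the arrays were most like each other, and for *Srgap1* and *Mink1*, the lower genes with a window. Capitals mark a GC box (GGGCGG) or a CCAAT box (CCAAT), read on both strands, and all are written 5′ to 3′ on the strand of the gene. The windows are chr7:16815639-16815938 on the plus strand for *Strn4*, chr17:66111296-66111595 on the plus strand for *Washc1*, chr10:122047266-122047565 on the minus strand for *Srgap1* and chr11:70562631-70562930 on the plus strand for *Mink1*.
Strn4: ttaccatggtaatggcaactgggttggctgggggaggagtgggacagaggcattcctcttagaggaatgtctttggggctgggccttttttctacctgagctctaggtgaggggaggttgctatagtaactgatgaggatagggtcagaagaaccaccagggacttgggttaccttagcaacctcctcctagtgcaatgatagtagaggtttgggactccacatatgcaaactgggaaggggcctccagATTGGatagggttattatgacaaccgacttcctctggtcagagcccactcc
Washc1: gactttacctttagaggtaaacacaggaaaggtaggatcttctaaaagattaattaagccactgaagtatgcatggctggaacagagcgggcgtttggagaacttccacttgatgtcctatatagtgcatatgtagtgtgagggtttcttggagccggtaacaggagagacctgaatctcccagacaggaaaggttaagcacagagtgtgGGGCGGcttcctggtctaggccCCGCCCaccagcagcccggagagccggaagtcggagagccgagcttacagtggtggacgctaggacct
Srgap1: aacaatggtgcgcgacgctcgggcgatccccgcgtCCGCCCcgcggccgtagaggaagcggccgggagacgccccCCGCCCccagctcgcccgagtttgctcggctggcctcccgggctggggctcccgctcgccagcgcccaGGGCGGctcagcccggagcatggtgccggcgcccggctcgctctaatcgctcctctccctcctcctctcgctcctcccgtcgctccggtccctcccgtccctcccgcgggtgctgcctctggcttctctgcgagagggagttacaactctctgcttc
Mink1: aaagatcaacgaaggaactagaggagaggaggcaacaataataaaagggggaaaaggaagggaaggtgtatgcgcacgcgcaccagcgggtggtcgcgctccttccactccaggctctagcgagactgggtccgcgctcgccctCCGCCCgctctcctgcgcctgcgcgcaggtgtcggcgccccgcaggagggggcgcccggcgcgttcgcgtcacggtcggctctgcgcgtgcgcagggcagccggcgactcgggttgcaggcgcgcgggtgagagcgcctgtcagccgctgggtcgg

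The windows of *Srgap1* and *Mink1* were GC-rich, at 73.3% and 69% GC with 37 and 39 CpG dinucleotides. *Strn4* had 51.3% GC and 1 CpG, and the *Washc1* window shown had 52% GC and 10 CpG. Over all 32851 windows of this length the median was 52.7% GC and 7 CpG. A GC box was in 35.7% of all windows; the *Srgap1* window held 3, that of *Washc1* 2 and that of *Mink1* 1. *Strn4* held 1 CCAAT box, which 37.4% of all windows held. *Vps13a*, at 71% GC with 42 CpG and 2 GC boxes, resembled *Srgap1* and *Mink1* in composition, although its probes differed in the opposite direction. *Cd3d* (42.3% GC, 1 CpG) and *Ppip5k1* (43.7% GC, 3 CpG) held none of the motifs searched. A second *Washc1* window, starting at a later transcription start, held 4 GC boxes and 1 E-box (CACGTG, in 7.15% of all windows). No window of the 7 genes held a TATA box (TATAAA, in 13.6% of all windows) or the NF-kB motif (in 5.8%), which says only that these letters are not in these windows.

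Among the genes that were higher after suppression, *Strn4* and *Washc1* stood out from both untreated arrays at each probe. *Strn4* encodes zinedin, a striatin family scaffold that joins protein phosphatase 2A to kinases in the STRIPAK complex. Its brightest probe had levels of 1.72, 2.04 and 4.10 in young, aging and suppressed aging blastocysts. The suppressed aging array stood above the other 2, by 4.18-fold over aging. The dimmer *Strn4* probe read -3.60, -3.91 and -1.37, a 5.79-fold difference between suppressed aging and aging. On the young and aging arrays its intensity was only 11.9 ± 2.10 and 10.3 ± 1.98 (scanner error), against 47.2 ± 5.0 after suppression.

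*Washc1* encodes the subunit of the WASH complex that activates the Arp2/3 complex, so that actin branches form on endosomes. The brightest *Washc1* probe read 2.54, 2.94 and 4.82 on the young, aging and suppressed aging arrays. The other read 2.48, 2.62 and 4.51. Both probes were well above the 75th percentile on all 3 arrays and highest on the suppressed aging array, where they exceeded aging by 3.67-fold and 3.72-fold. This was the closest match between 2 probes among the 9 genes, with a gap of 0.017 in log2. The intensities ran from 806.5 to 3445, far above local background.

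The VPS13A protein (chorein) is a bridge-like lipid transfer protein at contact sites between membranes, and its loss in people causes chorea-acanthocytosis. Levels of the brightest *Vps13a* probe were -1.66, -2.20 and -0.26 on the young, aging and suppressed aging arrays, and those of the second -2.49, -3.91 and -1.05. Both were highest after suppression and lowest in aging. The folds over aging were 3.83 and 7.24, the latter against an aging intensity of 10.3 ± 1.92. The third *Vps13a* probe, designed on a predicted transcript, was above background only on the suppressed aging array, at a level of -3.68. This gives a limit of 1.56-fold above aging, or 0.65 in log2, smaller than the scanner error of the difference (1.48). Its intensity was 9.58 ± 2.04 after suppression and 1.97 ± 1.97 in aging.

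*Ppip5k1* encodes a kinase that makes inositol pyrophosphates, energy-rich signaling molecules derived from inositol hexakisphosphate. Its brightest probe read -0.26 in young, -2.23 in aging and -0.25 in suppressed aging blastocysts, and its second -1.65, -2.61 and -0.29. Aging was the lowest array for both probes, by 3.95-fold and 5.02-fold against suppressed aging. The third probe, on the same RefSeq transcript, went the other way. It read -2.41, -2.42 and -3.29, which was 1.83-fold lower on the suppressed aging than on the aging array. Its intensity was 28.9 ± 3.5 (scanner error) on the aging array and 12.5 ± 2.1 after suppression.

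*Ikbkb* encodes IKK beta, the kinase that phosphorylates the inhibitors of NF-kB and so releases this transcription factor to the nucleus. The brightest *Ikbkb* probe, on NM_010546, read -0.05, -1.97 and -0.18 on the young, aging and suppressed aging arrays. The second, on another transcript variant, NM_001159774, read -3.29, -3.82 and -0.80. On the former the young array was near the suppressed aging array, and on the latter it was near the aging array. The folds of suppressed aging over aging were 3.47 and 8.15, the widest gap between 2 probes of any of the 9 genes (1.23 in log2). The 8.15-fold value is the highest of the 18 probes and rests on an aging intensity of 10.9 ± 2.20.

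*Cd3d* encodes the delta chain of CD3, which carries signals from the T cell receptor. Its brightest probe read -0.89, -2.21 and -0.49 on the young, aging and suppressed aging arrays, and its second -1.84, -2.40 and -0.72. Aging was the lowest for both, at 3.29-fold and 3.21-fold below suppressed aging. The 3.21-fold value is the smallest of the 18 probes. Intensities were 33.5 ± 3.86 and 29.2 ± 3.47 on the aging array against 87.3 ± 8.90 and 74.3 ± 7.62 after suppression.

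Of the 6 T cell markers that could be compared, 4 were lower on the suppressed aging array, where *Cd3d* was higher. Over all genes 7985 of 15875 were lower, so little is read from this count. Of 7 T cell markers 6 were above background on at least 1 array, none was over 3-fold higher after suppression, and their median difference was -0.42 in log2. Their median level was -2.54 in young, -1.53 in aging and -2.04 in suppressed aging blastocysts. *Ptprc*, which encodes the leukocyte antigen CD45, was below background on all 3 arrays, as was *Cd8a*. The genes of the chains that assemble with CD3 delta read differently from it. *Cd3e* was 2.15-fold lower on the suppressed aging than on the aging array, *Cd3g* was at least 2.93-fold lower, and *Cd247* was 1.11-fold higher.

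The remaining 3 genes were lower after suppression, and *Gm5907* is the noncoding one among them. Its brightest probe read 0.91, 0.87 and -1.43 on the young, aging and suppressed aging arrays, and its second 0.22, 0.22 and -2.21. Young and aging were nearly level on both probes, and suppressed aging was 4.92-fold and 5.39-fold below aging. In intensity this was 281.5 ± 28.2 against 45.3 ± 4.86 for the brightest probe. Of the 9 genes it had the largest change in the smaller of its 2 probe differences.

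*Srgap1* encodes a GTPase-activating protein that acts on CDC42 downstream of ROBO receptors when these bind SLIT ligands. The brightest *Srgap1* probe read -1.54, 1.19 and -1.25 on the young, aging and suppressed aging arrays, a peak on the aging array, which was 5.41-fold above suppressed aging. The second read -0.84, -0.37 and -2.37, with suppressed aging the lowest and 3.98-fold below aging. The third probe, on the transcript NM_001242411 and not on NM_001081037 as the other 2, read -3.09, -3.78 and -3.65. It differed by 1.09-fold, with suppressed aging the higher.

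*Mink1* encodes misshapen-like kinase 1, a germinal center kinase upstream of JNK signaling. Its 2 brightest probes read -1.13, -0.42 and -2.11, and -1.13, -0.28 and -2.51, on the young, aging and suppressed aging arrays. Aging was the highest and suppressed aging the lowest on both, with folds of 3.22 and 4.68 between them. The third *Mink1* probe, on the same transcript, read -3.51, -1.46 and -2.76. It was again lower after suppression than in aging, by 2.46-fold, but there the young array was the lowest.

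**Figure D2:**
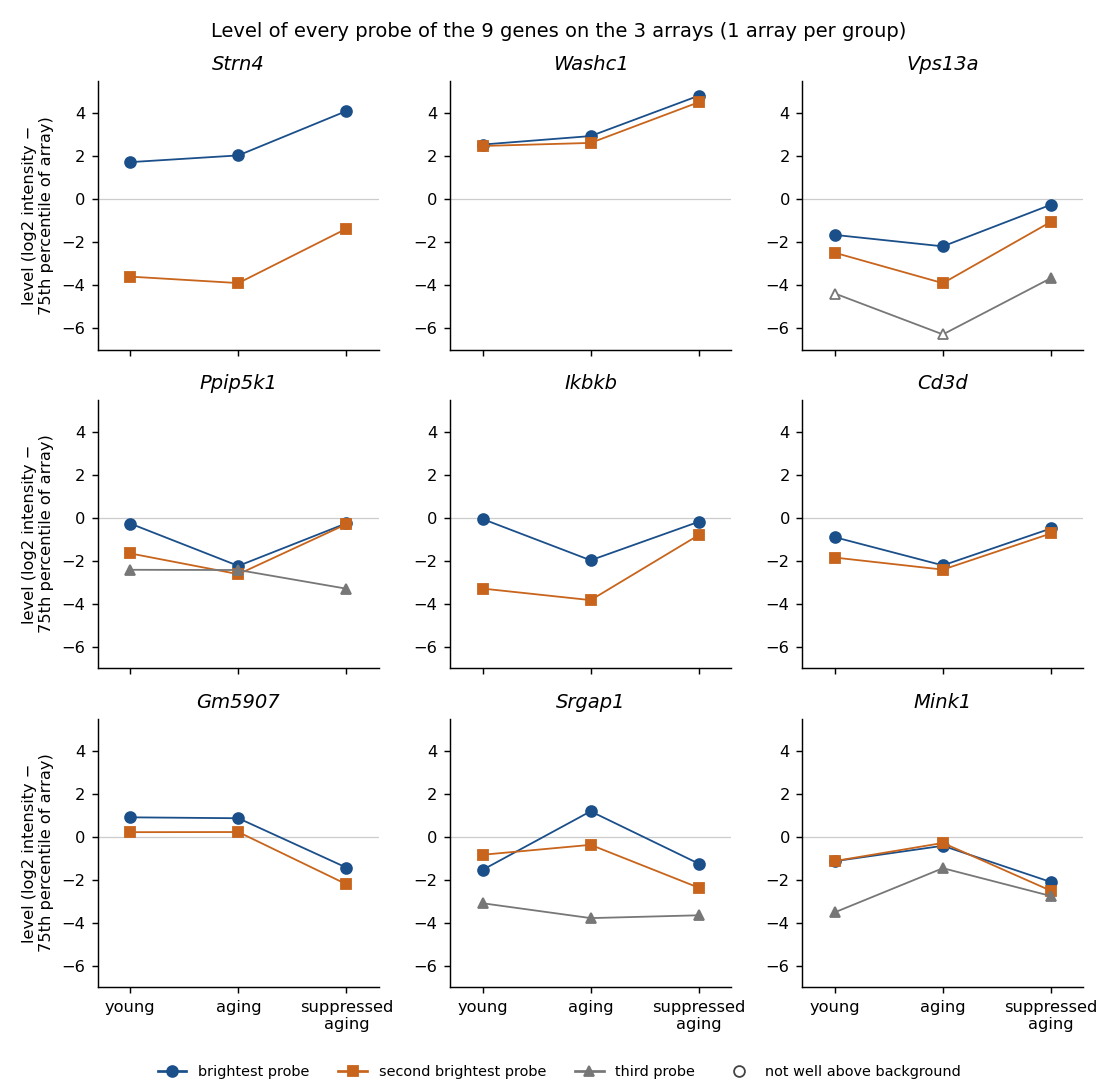
Levels (log2 intensity minus the 75th percentile of the array) of every probe of the 9 genes on the young, aging and suppressed aging arrays, with 1 array per group and hence no error bars; open symbols are not well above background. The top 2 rows hold the 6 genes that were higher after suppression and the bottom row the 3 that were lower. The third probes (triangles) of *Ppip5k1* and *Srgap1* do not follow the 2 brighter ones, and that of *Srgap1* lies too near background to show a fall of their size.

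The scanner software's error for a spot gives the only error of a single value here, since each of these probes had 1 spot per array. For the difference between suppressed aging and aging it ranged from 0.20 to 0.33 in log2 over the 18 probes. It covers the reading of a spot, not the spread between pools of embryos or between amplifications. Among 300 non-control probes printed 10 times on each array, the median SD over spots was 0.05 in log2. It was 0.23 to 0.24 for the dim ones with levels under -1. These were only 12, 12 and 15 probes on the young, aging and suppressed aging arrays. Spots within 8 rows and columns of a member spot (76 to 163 spots) had median differences of -0.21 to 0.12 between the suppressed aging and aging arrays. A fault at a single spot would not show in these medians and was not tested.

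The young array did not enter the 3-fold cut itself. Its levels did count in choosing the 2 brightest probes of each gene, which were ranked by mean level over the 3 arrays. Each comparison with the young array also shares an array with the contrast that chose the genes. Suppressed aging differed over 3-fold from young at both probes, in the direction of its difference from aging, in 3 genes, namely *Strn4* (2.38 and 2.23 in log2), *Washc1* (2.27 and 2.04) and *Gm5907* (-2.34 and -2.42). Over all genes, 0.374% of 4817 had both probes over 3-fold apart between suppressed aging and young. Aging against young gave none of the 9 genes with both probes over 3-fold, where 0.555% of 4861 genes had them. Of the 18 probes, 3 passed 3-fold between aging and young, in *Srgap1* (2.73), *Ppip5k1* (-1.97) and *Ikbkb* (-1.92), in each case at the brightest probe, where 5.89% of all 20503 named probes did. These values rest on the aging array, which the rule used.

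Young lay nearer to aging than to suppressed aging at both probes in 5 genes, *Gm5907*, *Strn4*, *Washc1*, *Vps13a* and *Mink1*. For the second *Vps13a* probe the distances were almost equal (1.41 from aging and 1.44 from suppressed aging). In the other 4 genes, *Srgap1*, *Ppip5k1*, *Ikbkb* and *Cd3d*, the 2 probes disagreed: at the brightest probe young lay nearer to suppressed aging, and at the second it lay nearer to aging. The probes of *Ikbkb* lay furthest apart in this respect, with suppressed aging minus young at -0.13 for one and 2.49 for the other. No gene of the 9 had young nearer to suppressed aging at both probes. Over all 4679 genes with 2 probes detected on every array, young was nearer to aging at both probes in 20.5% and nearer to suppressed aging at both in 31.7%, and the probes disagreed in 47.9%. The 9 genes were chosen for a wide gap between the aging and suppressed aging arrays, and nothing is read from the difference between these shares.

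**Figure D3:**
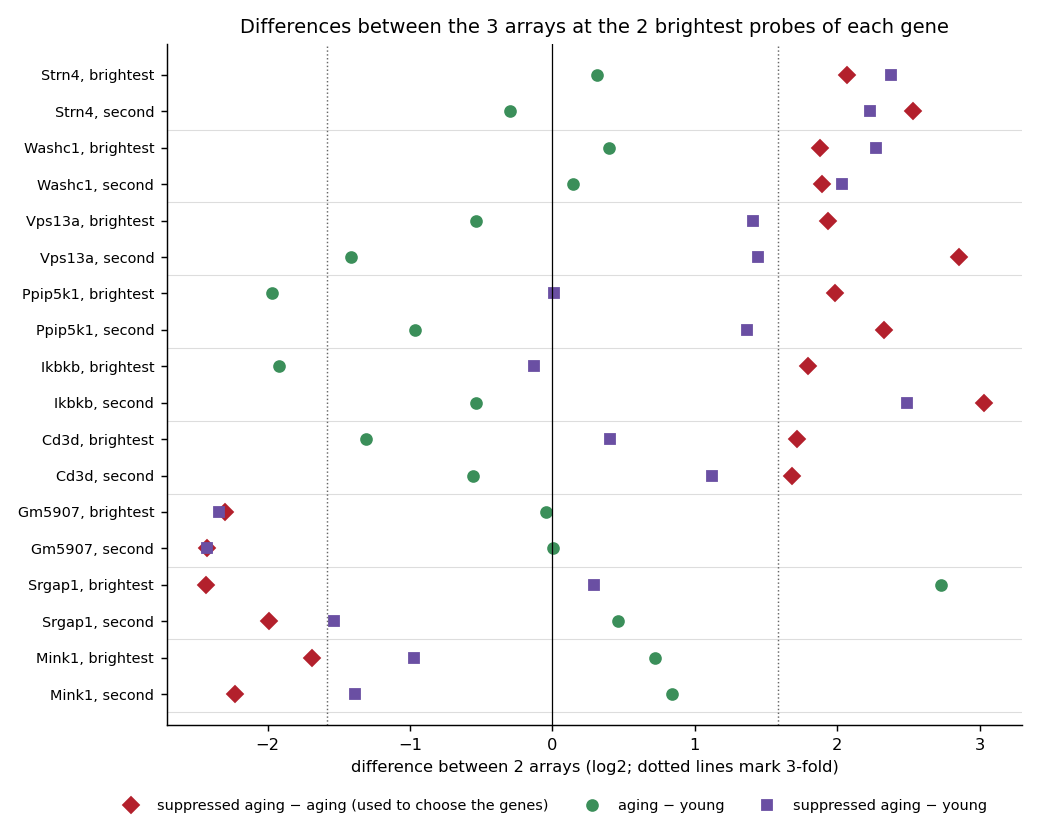
Log2 differences between pairs of arrays at the 2 brightest probes of the 9 genes, with suppressed aging minus aging as red diamonds (the contrast that chose the genes), aging minus young as green circles and suppressed aging minus young as purple squares; dotted lines mark 3-fold. In *Strn4*, *Washc1* and *Gm5907* the squares lie beyond the dotted lines beside the diamonds and the circles lie near 0, while in *Srgap1*, *Ppip5k1*, *Ikbkb* and *Cd3d* the squares of the 2 probes lie apart.

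The partners of the members in their complexes and pathways were read from 8 gene lists, at the brightest probe of each gene. *Gm5907* was in none of these lists. Of 106 listed genes other than the members, 94 could be compared between suppressed aging and aging; 1 was over 3-fold higher and 5 over 3-fold lower. Over all 15875 genes compared in this way, 6.66% differed over 3-fold, close to the share among the partners. The median difference of the partners was 0.04 in log2, and 0.005 over all genes. Over all genes compared, 7890 were higher and 7985 lower. The medians and counts given below for single lists include the member, whose direction the rule fixed.

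In the STRIPAK list of 18 genes, *Strn4* was the only one over 3-fold. Its paralogs *Strn* and *Strn3* differed by 0.41 and 0.01 in log2 between suppressed aging and aging. The phosphatase core genes *Ppp2r1a*, *Ppp2ca* and *Ppp2cb* differed by 0.08, 0.09 and -0.41. *Slmap*, a membrane-anchored STRIPAK component, stood next to *Strn4* at 1.42. The list median was 0.09, with 11 genes higher, *Strn4* among them, and 5 lower.

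The list of the WASH complex and retromer, the coat that returns cargo from endosomes, gave *Washc1* as its sole gene over 3-fold. The other WASH subunit genes *Washc2*, *Washc3*, *Washc4* and *Washc5* differed by -0.22, 0.29, 0.39 and 0.02 in log2. *Vps29*, a retromer subunit gene, differed by 0.96. The median was 0.25, from 11 higher genes, *Washc1* among them, and 5 lower genes. Among the bridge-like lipid transfer proteins and their partners only *Vps13a* passed 3-fold, while *Vps13b*, *Vps13c* and *Vps13d* differed by -0.06, -0.34 and 1.06.

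The IKK and NF-kB list held the most partners over 3-fold and was also the largest list. Of its 20 genes, all comparable, 2 were over 3-fold higher and 2 were over 3-fold lower. *Ikbkb* was among the higher ones because the rule chose it. Over all genes compared in this way the share was 6.66%, and a list that holds a chosen gene cannot be set against it. *Tab1* and *Tab2*, which encode adaptors of the kinase TAK1 upstream of IKK, were 5.71-fold and 3.37-fold lower on the suppressed aging than on the aging array. *Nfkbia*, the gene of an NF-kB inhibitor and a known NF-kB target, was at least 3.18-fold higher, being below background on the aging array. The inhibitor gene *Nfkbie* was at least 2.79-fold lower, being below background on the suppressed aging array, and *Nfkbib* differed by -0.17 in log2. The genes of the other IKK subunits, *Chuk* and *Ikbkg*, differed by 0.37 and -0.50 in log2. The list as a whole was balanced, with 9 genes higher and 11 lower and a median of -0.12.

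Among the inositol phosphate enzymes *Ip6k1*, whose kinase feeds the same pyrophosphate pathway as PPIP5K1, was 3.05-fold lower after suppression, and *Ppip5k2*, the paralog of *Ppip5k1*, differed by -0.01 in log2. The list median was 0.04. In the germinal center kinase list *Mink1* was the only gene over 3-fold and one of 2 that were lower. The remaining 5 of 7 comparable genes were higher, *Map4k4*, a close paralog of *Mink1*, by 0.54. The median was 0.40.

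SLIT and ROBO genes were mostly not measurable here. *Slit1*, *Slit2*, *Slit3*, *Robo1* and *Robo2* were below background on the suppressed aging and aging arrays, and *Robo4* differed by -0.42 in log2. *Srgap2* and *Srgap3*, paralogs of *Srgap1*, differed by 0.06 and 0.95, and *Cdc42* by 0.81. In the T cell receptor list *Cd2* and *Cd28*, encoding adhesion and costimulatory receptors of T cells, were 4.91-fold and 3.49-fold lower on the suppressed aging array, against the direction of *Cd3d*. The median of that list was -0.18, with 5 genes higher and 6 lower.

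**Figure D4:**
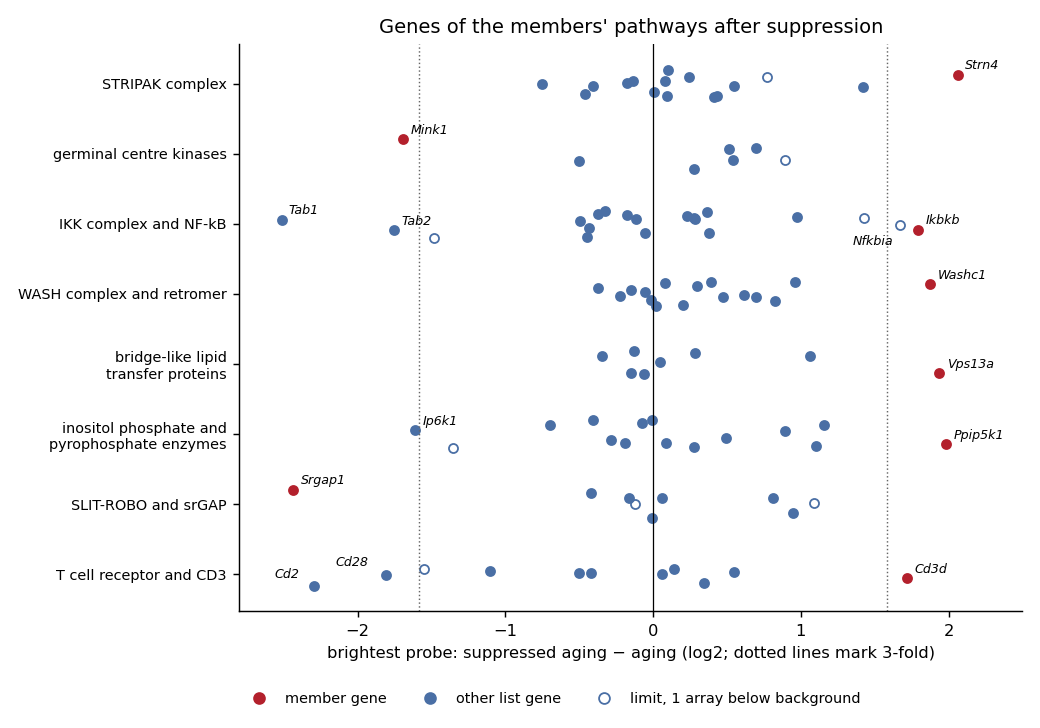
Log2 difference of suppressed aging minus aging at the brightest probe of each gene in the 8 lists, 1 point per gene, with members in red, partners in blue and open points for limits where 1 array was below background; vertical scatter within a list has no meaning. Each member shown lies beyond the dotted 3-fold lines, as the rule requires, while most partners lie between them. *Gm5907* is in no list and is not shown. Named partners are *Tab1*, *Tab2*, *Nfkbia*, *Ip6k1*, *Cd2* and *Cd28*.

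For each of the 9 genes the most similar pattern was sought among 4679 genes that had 2 probes detected on every array, as the Euclidean distance between the centred levels of 2 probes on 3 arrays. These distances use the values that chose the genes and describe likeness only. *Strn4* and *Washc1* were each other's nearest gene, at a distance of 0.48 in log2. *Ppip5k1* was nearest to *Cd3d* (0.66), and *Cd3d* was nearest to *Peg10* (0.41). The nearest genes of *Vps13a*, *Ikbkb*, *Gm5907*, *Srgap1* and *Mink1* were *Smchd1* (0.69), *Coq8a* (0.54), *Vegfa* (0.71), *Clec2i* (0.67) and *Masp2* (0.56).

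*Peg10* had levels of 2.94, 2.06 and 3.44 at its brightest probe on the young, aging and suppressed aging arrays, and *Vegfa* of -0.42, -1.04 and -2.44. Aging was the lowest for *Peg10*, as it was for *Cd3d*, and suppressed aging was the lowest for *Vegfa*, as it was for *Gm5907*. None of these neighbors met the 3-fold rule apart from the members among them.

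With 1 array per group no difference here has a replicate check, and most of them changed in size under 1 alternative. With normexp correction, which replaces the background model and also adds an offset of 50 to every intensity, all 18 probes kept their direction, but *Washc1* alone kept both probes over 3-fold.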

How the data were processed

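RNA of 1 pool of 30 blastocysts per group was hybridized to single-color Agilent mouse arrays. The authors deposited spot intensities on a linear scale, background-subtracted by Agilent Feature Extraction 12.0.3.1 and not normalized between arrays. A deposited table of processed intensity values held the same intensities times 1 factor per array (3.457, 3.339 and 3.963). The study's methods name a single-primer global PCR amplification and its labels a Low Input Quick Amp kit, so which was used is not settled, and either can distort levels of single transcripts.

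Control spots and outlier spots (100, 85 and 118 on the young, aging and suppressed aging arrays) were left out, spots of 1 probe were averaged as log2 of intensity, and each array's 75th percentile was taken off. No spot was saturated. Probes were named through RefSeq accessions (33759 of 56591 probes). The array design uses an older genome build than the RefSeq tables (GRCm38.p6), which gave names and promoter windows. Probe sequences were not used here, so overlap between 2 probes of a gene is unknown. Where 1 array was below background, a fold is given as a limit. It sets the brighter level against the higher of the dim array's detection limit and the probe's own level. The detection limit (-4.20, -4.32 and -3.93) is the lowest level of any probe called above background on that array. Some probes not above background lay higher, so these folds are approximate limits. The precision of each group is limited by its 1 array, so differences are descriptions without tests or p-values.

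The 9 genes and all lists were chosen with earlier results of these data known. Named genes were the members, list genes over 3-fold, 3 genes on each side of the threshold and the nearest gene of each member. Others (paralogs, complex partners, markers and the remaining genes meeting the rule) were named after their values were seen. Alternatives were normexp background correction (limma 3.58.1 in R 4.3.3, offset 50), 3 other scalings, the deposited table, other filters, 2-fold and 5-fold thresholds and the mean over all probes. The code of the rule was checked on simulated data with planted differences well over the threshold and little noise. That check says nothing about how reliable the rule is on these arrays. Computations used Python 3.11.15, NumPy 2.4.6, pandas 2.3.3 and Matplotlib 3.10.9.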

Additional observations from a re-analysis of the deposited data

How the results depend on the processing

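The count of genes with both probes over 3-fold was 11 and that of members among them 9. With quantile normalization or centring on the median of the probes detected on every array the counts were 10 and 9, with housekeeping genes 13 and 9, and with the deposited values 13 and 8, since both *Gm5907* probes are not among those values. Keeping outlier spots, or requiring signal on all 3 arrays, left 11 and 9. With normexp correction the counts were 3 and 1, the probe differences from young over 3-fold went from 10 to 4, and the list partners measured on both arrays and over 3-fold from 5 to 2. Without a filter on background 74 genes met the rule, all 9 members among them, and 12 partners were over 3-fold. Thresholds of 2-fold and 5-fold gave 105 genes and 1 gene (*Anapc1*). The mean over all probes of a gene gave 77 genes with 7 members, without *Srgap1* (-1.43) and *Ppip5k1* (1.15). Their dimmest probes did not follow the others, and that of *Srgap1* was near background. With normexp 16 of the 18 member differences between suppressed aging and aging moved by more than their scanner error. The scalings moved the median difference of all probes by -0.09 to 0.01. No replicate could be left out. No paired analysis was possible because there was only 1 array per group. The normexp setting changed the background model and added an offset of 50 together, and which of these moved the values was not tested. It moved the second probes of *Strn4* (2.53 to 0.91), *Vps13a* (2.86 to 0.91) and *Ikbkb* (3.03 to 0.91), which were dim on the aging array.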
